A study of Rattus norvegicus with 5 samples.

Results

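The lung of 1 hypoxia-tolerant rat, the female labelled Tol(F), was compared with the lung of 1 normoxic rat, the male labelled Con, through every row of the deposited table of Tol(F) over normoxia. Both rats were Sprague Dawley, an outbred laboratory strain, and their lung RNA was sequenced as 1 library each. Tol(F) had been screened in a decompression chamber, where it took more than 1 h to gasp, and after a week of acclimatisation was exposed for 1 h to a simulated altitude of 9144 m. Con stayed at normal pressure and was not screened. The other libraries were 3 males given the same exposure: Tol(M), whose group gasped after more than 45 min, Nor(M), whose group gasped at 15 to 20 min, and Sus(M), whose group gasped before 5 min. Because each side was a single library, no fold below could be checked against the spread between animals. Sex, tolerance, exposure and the individual animal cannot be told apart between Tol(F) and Con. The comparison addresses which lung transcripts differed after acute hypobaric hypoxia in an animal that withstood it.

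Cells short of oxygen stabilise hypoxia-inducible factor (HIF), a transcription factor that switches on genes for glycolysis, vessel growth and red cell formation. Within minutes of many kinds of stress, cells also switch on immediate-early genes, which need no new protein to be transcribed, and adrenal glucocorticoids act on the lung through their own receptor. The lung is rich in endothelium, and its arteries constrict when alveolar oxygen falls, a response in which endothelin takes part.

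The table held 256 rows, which came to 241 autosomal loci when each symbol was counted once per locus, of 1764 autosomal loci listed in at least 1 of the 9 distinct tables of the series. Of them, 129 were higher and 112 were lower in Tol(F) in the authors' deposited table, which is 7.31% and 6.35% of those 1764 loci. The authors listed genes that differed at least 2-fold with a p, corrected for the false discovery rate (FDR), under 0.05, so each deposited fold printed below met both limits, and 204 of the 241 loci also had a p of at most 0.01. The median fold was 2.86 among the higher loci and 3.17 among the lower loci of the authors' deposited table. A named gene stood at 182 of the loci (92 higher, 90 lower), and the other 59 carried predicted or unnamed IDs (37 higher, 22 lower). Genes outside the list may or may not have changed, since the table gives them no value. The tables hold no counts, so depth is unknown and its part in any fold was not tested. Each p compares 2 libraries and not 2 conditions.

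Against the same normoxic library, the authors' deposited tables listed 253 autosomal loci for Tol(M), 837 for Nor(M) and 255 for Sus(M). All of these tables share the normoxic library, so their folds are set side by side below and not counted as independent. Where no table listed a gene for another exposed library, its fold was derived through another library where the tables allowed, and such a fold has no p. The labels could not be checked through the sex chromosomes. No row of the authors' deposited table lay on Y, and the row named Ddx3y, 2.05-fold higher in Tol(F), was placed on X inside the locus of Ddx3x, itself 2.46-fold higher. The 8 loci on X are left out of every count. Lung identity could not be checked either: markers of alveolar type 1 cells, ciliated cells and macrophages had no autosomal row, and Scd1 was the only listed gene of the alveolar type 2 list.

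**Figure D1:**
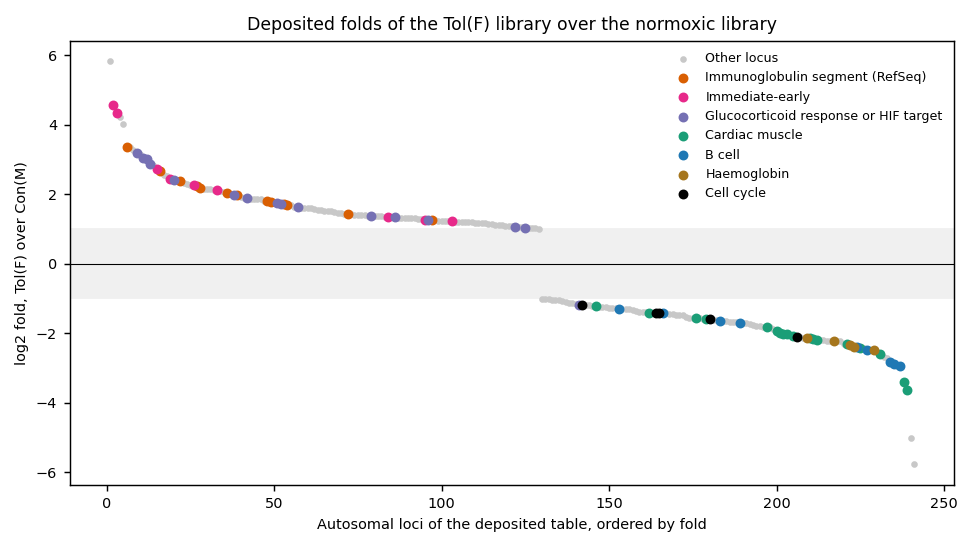
The log2 fold of Tol(F) over Con(M) on the vertical axis is shown for each of the 241 autosomal loci, ordered by fold along the horizontal axis. Each point is 1 locus, coloured by gene group, and the grey band marks folds below 2, which the table does not hold. Immediate-early genes and immunoglobulin segments stand at the left among the 129 higher loci, and cardiac muscle, B cell and haemoglobin genes at the right among the 112 lower loci.

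Promoters of 8 higher genes are shown because they belong to the groups described next: immediate-early genes, HIF targets and metallothioneins. They are the bases just before the annotated start, from RefSeq on the rat assembly GRCr8, written 5' to 3' on the gene's own strand. The deposited tables do not name their build, so these places are not those of the deposited rows. Capitals mark matches on either strand. The first motif is TGACG, the short form of the cAMP response element bound by CREB family factors, and its places are chr7:112792637-112792786 on the plus strand for Maff, chr4:169552449-169552598 on the plus strand for Apold1 and chr18:26736928-26737077 on the plus strand for Egr1.
Maff: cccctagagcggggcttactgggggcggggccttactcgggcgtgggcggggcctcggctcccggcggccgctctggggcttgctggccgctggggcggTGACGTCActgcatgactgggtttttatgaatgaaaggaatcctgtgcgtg
Apold1: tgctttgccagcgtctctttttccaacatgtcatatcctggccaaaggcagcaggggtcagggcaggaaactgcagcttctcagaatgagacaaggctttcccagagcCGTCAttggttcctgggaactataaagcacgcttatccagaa
Egr1: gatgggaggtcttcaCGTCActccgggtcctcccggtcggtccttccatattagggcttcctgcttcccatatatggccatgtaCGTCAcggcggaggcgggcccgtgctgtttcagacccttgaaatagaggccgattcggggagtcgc

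TGACG was found in 6 of the 6 listed immediate-early genes that had a promoter in the RefSeq table. Among other listed genes with a promoter it was found in 3 of 3 stress, p53 and growth arrest genes and 2 of 3 cAMP and CREB response genes. It was found in 30 of 76 higher loci with a promoter (39.5%) and 14 of 74 lower loci (18.9%), against 18.2% of all 33469 promoters over 250 bases. In Maff the match was the full palindrome TGACGTCA, which 1.59% of all promoters held, so the same bases matched on both strands, and its first base lay 51 bases before the start. The match began 42 bases before the start in Apold1, and 135 and 66 bases before it in Egr1. A match is a description of letters and does not show that a factor was bound.

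The second motif is ACGTG, the core of the element bound by HIF and by other basic helix-loop-helix factors, at chr1:203154963-203155112 on the minus strand for Bnip3, chr4:143174200-143174449 on the plus strand for Bhlhe40 and chr17:71944783-71944932 on the plus strand for Pfkfb3.
Bnip3: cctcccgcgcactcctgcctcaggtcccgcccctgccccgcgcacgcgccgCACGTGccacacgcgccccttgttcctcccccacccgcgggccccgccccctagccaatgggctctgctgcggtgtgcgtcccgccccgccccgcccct
Bhlhe40: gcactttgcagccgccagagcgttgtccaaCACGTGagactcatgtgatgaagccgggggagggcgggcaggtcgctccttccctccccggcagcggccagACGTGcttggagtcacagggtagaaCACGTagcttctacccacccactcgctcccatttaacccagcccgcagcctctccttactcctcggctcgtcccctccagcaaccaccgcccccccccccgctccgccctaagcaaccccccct
Pfkfb3: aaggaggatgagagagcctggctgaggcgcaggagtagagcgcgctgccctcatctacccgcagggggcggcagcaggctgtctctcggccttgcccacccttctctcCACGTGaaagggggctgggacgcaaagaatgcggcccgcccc
ACGTG was present in 16.6% of all promoters, in 21 of 76 higher loci (27.6%) and in 14 of 74 lower loci (18.9%). Among higher genes with a promoter it was present in 3 of 3 HIF targets outside glucose metabolism and in Pfkfb3. It was also present in 4 of 6 higher immediate-early genes, and it was absent from Pdgfb, a lower HIF target. Where the letters read CACGTG, a palindrome, both strands match at places 1 base apart, as in Bnip3 at 99 and 98 bases and in Pfkfb3 at 42 and 41 bases before the start.

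The last motif is TGCACNC or TGCGCNC, the core of the metal response element through which zinc and other metals act on metallothionein genes, at chr19:10832976-10833175 on the minus strand for Mt1a and chr19:10838709-10838958 on the minus strand for Mt2A.
Mt1a: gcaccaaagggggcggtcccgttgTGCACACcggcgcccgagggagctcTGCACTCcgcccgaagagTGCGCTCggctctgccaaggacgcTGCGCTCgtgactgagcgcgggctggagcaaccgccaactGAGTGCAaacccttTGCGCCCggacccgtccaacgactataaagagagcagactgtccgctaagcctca
Mt2A: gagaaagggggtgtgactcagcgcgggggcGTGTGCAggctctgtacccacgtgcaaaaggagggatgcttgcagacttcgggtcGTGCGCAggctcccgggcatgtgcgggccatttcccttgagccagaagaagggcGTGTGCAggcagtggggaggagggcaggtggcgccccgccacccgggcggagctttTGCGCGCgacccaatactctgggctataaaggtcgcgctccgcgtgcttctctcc
At least 1 match was present in 20.6% of all promoters, in 23 of 76 higher loci (30.3%) and in 23 of 74 lower loci (31.1%). At least 4 were found in 89 of all promoters (0.266%) and at least 6 in 9 (0.0269%). The stretch shown held 6 matches for Mt1a and 4 for Mt2A.

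Of the HIF targets outside glucose metabolism, 7 of 50 were listed as higher in Tol(F) and 1 as lower, while only Pfkfb3 of the 30 glucose and fuel genes was listed. The 8 are 57.1% of the 14 members that any of the 9 tables lists, and Pfkfb3 is 8.33% of 12. Over all such loci 7.31% were higher and 6.35% lower. The median log2 fold of the 8, the lower one included, was 1.43. The 129 higher autosomal loci had a median of 1.51, but they hold no lower locus, so this is not a like comparison. Over all 241 loci the median was 1.07, and over those outside the immunoglobulin stretches described below it was -1.03. The table holds no fold under 2, so these 2 signed medians lie at its edge and give no baseline. In the authors' deposited tables Stc1, a secreted calcium- and phosphate-regulating hormone, was 7.99-fold higher than normoxia in Tol(F), 9.02-fold higher in Tol(M) and 4.61-fold higher in Sus(M). Its fold in Nor(M) was 2.06, derived, and the authors' deposited table set Tol(F) 3.88-fold above Nor(M). In order of fold the libraries were thus Tol(M), Tol(F), Sus(M) and Nor(M), and the tables listed a direct difference of Tol(F) from Nor(M) but not from Sus(M). No table compares Tol(F) with Tol(M). Edn1, the precursor of the vasoconstrictor endothelin, was 3.68-fold higher than normoxia in Tol(F), 2.62-fold in Tol(M) and 3.88-fold in Sus(M), but 2.50-fold lower in Nor(M), in the authors' deposited tables. Directly, Tol(F) was 9.18-fold above Nor(M) for Edn1 in the authors' deposited table, with a stored p of 0.

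Pfkfb3, whose product makes the activator of phosphofructokinase and so speeds glycolysis, was 2.51-fold higher in Tol(F), 2.02-fold in Tol(M) and 2.84-fold in Sus(M) in the authors' deposited tables. Against Nor(M), the authors' deposited table put it 2.63-fold higher in Tol(F). Bnip3, a mitochondrial protein that promotes mitophagy, was higher than normoxia by 2.38-fold in Tol(F), 2.59-fold in Tol(M), 3.62-fold in Nor(M) and 2.72-fold in Sus(M) in the authors' deposited tables; its FDR-corrected p in Tol(F) was 0.0456. Bhlhe40, a repressor that also belongs to the clock list, was 3.06-fold higher in Tol(F) than in normoxia and 3.03-fold higher than in Nor(M) in the authors' deposited tables. Haem oxygenase Hmox1 was 2.09-fold higher in Tol(F) and 2.09-fold higher in Tol(M) in the authors' deposited tables. The exception was Pdgfb, a growth factor for pericytes, which was 2.28-fold lower than normoxia in Tol(F) and 6.69-fold lower in Nor(M) in the authors' deposited tables. None of the 13 genes of oxygen sensing and the HIF machinery was listed. The other listed clock gene was Wee1, a mitotic kinase, 2.19-fold higher in Tol(F) in the authors' deposited table. With Bhlhe40 it makes 16.7% of the 12 clock members that any of the 9 tables lists, beside 7.31% higher over all such loci.

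Immediate-early genes had 9 of 49 listed, and all 9 were higher, with a median log2 fold of 2.25. That is 31.0% of the 29 members that any of the 9 tables lists, beside 7.31% higher over all such loci. Apold1 had the highest fold of any named autosomal gene. Apold1, an endothelial early-response gene, was 23.8-fold higher than normoxia in Tol(F), 17.7-fold in Tol(M), 6.07-fold in Nor(M) and 21.1-fold in Sus(M) in the authors' deposited tables. Nr4a3, an orphan nuclear receptor, was higher by 20.1-fold in Tol(F), 13.1-fold in Tol(M), 20.1-fold in Nor(M) and 38.8-fold in Sus(M) in the authors' deposited tables. Nor(M) was thus the lowest of the exposed libraries for Apold1 but not for Nr4a3. Maff, a small Maf transcription factor, was 6.54-fold higher in Tol(F), 2.73-fold in Tol(M), 4.70-fold in Nor(M) and 5.18-fold in Sus(M) in the authors' deposited tables. Atf3, a stress-induced repressor, was 5.35-fold higher in Tol(F), 2.26-fold in Tol(M) and 3.51-fold in Sus(M) in the authors' deposited tables.

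Fos, a subunit of AP-1, was 4.31-fold higher in Tol(F), 2.42-fold in Tol(M) and 8.39-fold in Sus(M) in the authors' deposited tables, and a derived 1.69-fold below normoxia in Nor(M). Egr1, a zinc finger factor, was 2.32-fold higher in Tol(F) in the authors' deposited table and 1.67-fold below normoxia in Nor(M) by derivation. For both genes Tol(F) was directly above Nor(M), by 7.27-fold for Fos and 3.87-fold for Egr1 in the authors' deposited table. Cyr61, a secreted matrix signal also called Ccn1, was 2.54-fold above normoxia, 2.01-fold above Sus(M) and 3.22-fold above Nor(M) in Tol(F) in the authors' deposited tables. Snf1lk, the salt-inducible kinase Sik1, lay between the other libraries: in the authors' deposited tables Tol(F) was 2.39-fold above normoxia, 3.29-fold above Nor(M) and 2.07-fold below Sus(M). Errfi1, an inhibitor of EGF receptor signalling, was 4.77-fold higher in Tol(F) in the authors' deposited table.

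Of 25 cAMP and CREB response genes, 4 were listed and all were higher, among them Nr4a3 and Snf1lk. That is 33.3% of the 12 members that any of the 9 tables lists, beside 7.31% higher over all such loci. Crem, which encodes the cAMP-responsive modulator and its short repressor forms, had 2 gene models in the authors' deposited table, 8.86-fold and 3.44-fold higher in Tol(F). Pde4b, a phosphodiesterase that breaks down cAMP, was 2.89-fold higher in Tol(F), 3.58-fold in Tol(M) and 3.31-fold in Sus(M) in the authors' deposited tables.

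Of 36 glucocorticoid-response genes, 8 were listed, each as higher, with a median log2 fold of 2.12. They are 53.3% of the 15 members that any of the 9 tables lists, beside 7.31% higher over all such loci, and the other members have no value here. Mt2A, a metallothionein that binds zinc, was 9.06-fold higher in Tol(F), 8.06-fold in Nor(M) and 5.18-fold in Sus(M) in the authors' deposited tables, and Mt1a was 5.33-fold higher in Tol(F) and 9.75-fold in Nor(M). A further gene model of Mt2A, without a row for Tol(F) against normoxia, was lower in Tol(F) than in Nor(M). Both belong to a family of near-identical copies, so their values are uncertain. Cdkn1a, which encodes the cell cycle inhibitor p21, was 8.30-fold higher in Tol(F), 10.9-fold in Tol(M), 4.30-fold in Nor(M) and 17.0-fold in Sus(M) in the authors' deposited tables. Directly, Tol(F) was 2.05-fold below Sus(M) for Cdkn1a in the authors' deposited table. The reverse held for Fkbp5, a co-chaperone of the glucocorticoid receptor, and Zbtb16, a zinc finger repressor. In the authors' deposited tables Fkbp5 was 3.37-fold above normoxia and 2.24-fold above Sus(M) in Tol(F). Zbtb16 was 2.60-fold above normoxia and 4.39-fold above Sus(M) in Tol(F) in the authors' deposited tables, and its derived level in Sus(M) was 1.68-fold below normoxia. Map3k6, a stress-activated kinase, and Rgc32, a cell cycle regulator, were 3.96-fold and 3.30-fold higher in Tol(F) in the authors' deposited table.

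Among 30 stress, p53 and growth arrest genes, Cdkn1a, Trib3 and Atf4 were listed, all as higher. These are 37.5% of the 8 members that any of the 9 tables lists, beside 7.31% higher over all such loci. Atf4, the main transcription factor of the integrated stress response, was 2.03-fold higher in Tol(F) and Trib3, one of its targets, 4.24-fold higher in the authors' deposited table. Metallothionein, antioxidant and heat shock genes had 4 of 32 listed, all higher: both metallothioneins, Hmox1 and the inducible heat shock protein Hspa1a, which was 2.46-fold higher in Tol(F) in the authors' deposited table. The 4 are 40.0% of the 10 members that any of the 9 tables lists, beside 7.31% higher over all such loci. Of 69 cytokine, chemokine and sensing genes, only Il1a, a cytokine released by damaged cells, was listed. That is 6.67% of the 15 members that any of the 9 tables lists, close to the 7.31% higher over all such loci. Il1a was 3.73-fold higher in Tol(F) against 7.36-fold higher in Sus(M) in the authors' deposited tables. The 2 listed interferon-induced genes of 52 were lower in Tol(F), Mx2 by 2.94-fold and Slfn3 by 2.97-fold in the authors' deposited table. Those are 12.5% of the 16 members that any of the 9 tables lists, beside 6.35% lower over all such loci. No major histocompatibility gene was listed.

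**Figure D2:**
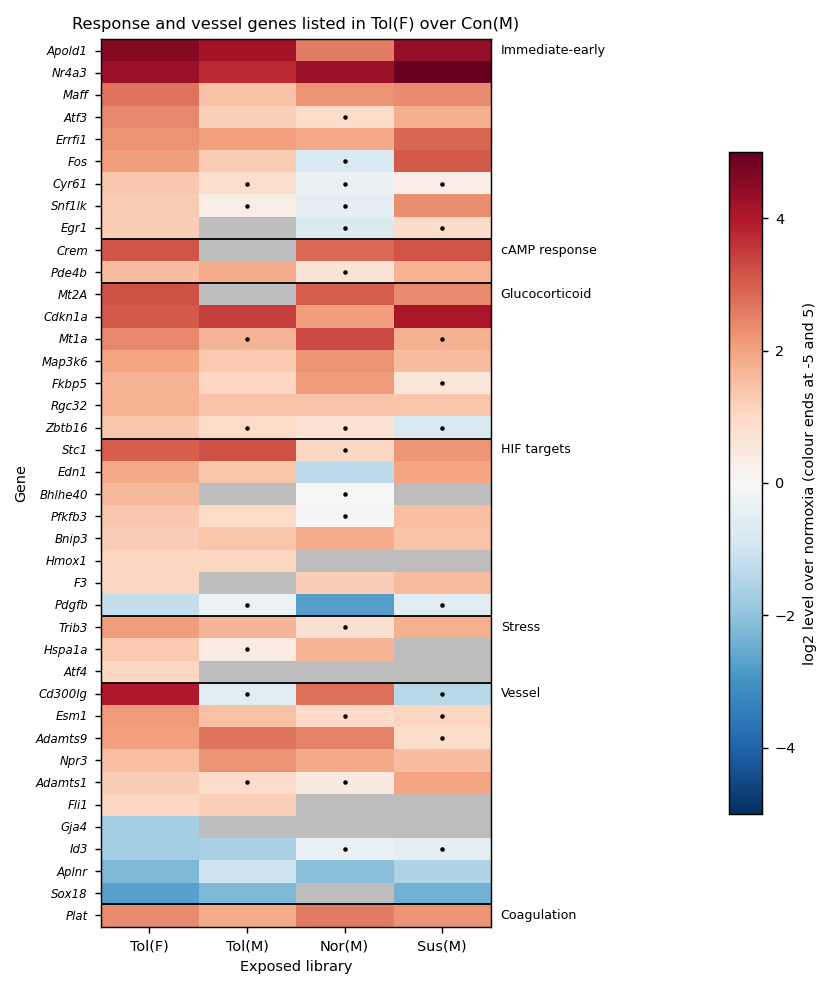
Colour gives the log2 level relative to normoxia of listed response and vessel genes (rows) in the 4 exposed libraries (columns), with red for higher and blue for lower. A black dot marks a derived value and grey a value that the tables do not give. Tol(F), Tol(M) and Sus(M) are red for Fos and Edn1, while Nor(M) is blue, and Cd300lg is red in Tol(F) and Nor(M) only.

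Vessel genes moved in both directions. Of 56 genes of endothelial activation and vessel growth, 5 were higher and 3 lower in Tol(F), and of 52 endothelial cell markers 3 were higher and 3 lower. Of the members that any of the 9 tables lists, these are 38.1% of 21 and 26.1% of 23. The shares over all such loci were 7.31% higher and 6.35% lower. In the authors' deposited tables Esm1, a secreted proteoglycan of activated endothelium, was 4.39-fold above normoxia in Tol(F), 2.09-fold above Sus(M) and 2.21-fold above Nor(M). Adamts9 and Adamts1, extracellular proteases, were 4.18-fold and 2.37-fold higher in Tol(F) in the authors' deposited table, and Adamts9 was 2.20-fold above Sus(M). Cd300lg, a receptor of capillary and venular endothelium, was 16.1-fold above normoxia in the authors' deposited table. Its level in Tol(F) was also 42.1-fold above Sus(M) and 2.40-fold above Nor(M) (FDR-corrected p of 6.52e-08 and 0.0439) in the authors' deposited tables, while derived levels lay 1.45-fold below normoxia in Tol(M) and 2.62-fold below it in Sus(M).

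Among lower vessel genes, Sox18, a transcription factor of vessel and lymphatic growth, had gene models 6.58-fold and 5.63-fold lower in Tol(F) in the authors' deposited table. The apelin receptor Aplnr was 4.73-fold lower in Tol(F), 2.08-fold in Tol(M), 4.31-fold in Nor(M) and 2.87-fold in Sus(M) in the authors' deposited tables. Gja4, a connexin of arterial endothelium, was 3.20-fold lower in Tol(F) in the authors' deposited table. Id3, an inhibitor of basic helix-loop-helix factors, was 3.35-fold below normoxia, 2.42-fold below Sus(M) and 2.67-fold below Nor(M) in Tol(F) in the authors' deposited tables. Npr3, the clearance receptor for natriuretic peptides, was higher by 2.84-fold in Tol(F), 4.70-fold in Tol(M), 3.74-fold in Nor(M) and 2.95-fold in Sus(M) in the authors' deposited tables. Fli1, an ETS factor of endothelium, was 2.06-fold higher in Tol(F) in the authors' deposited table. Of 59 vasoactive peptide and receptor genes, Edn1 and Npr3 were listed as higher and Aplnr as lower.

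Coagulation and fibrinolysis had 3 of 44 genes listed, all higher. That is 60.0% of only 5 members that any of the 9 tables lists, beside 7.31% higher over all such loci. Plat, the tissue plasminogen activator, which starts the breakdown of clots, was higher by 5.19-fold in Tol(F), 3.60-fold in Tol(M), 5.84-fold in Nor(M) and 4.70-fold in Sus(M) in the authors' deposited tables. Tissue factor F3, which starts the clotting cascade, was 2.05-fold higher in Tol(F), 2.36-fold in Nor(M) and 3.02-fold in Sus(M) in the authors' deposited tables. A starter of clot breakdown and the starter of clotting were thus both higher than normoxia in Tol(F).

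Immunoglobulin segments, the variable parts of antibody chains, were higher in Tol(F) at all 13 loci that RefSeq annotates in the table, 5 on chromosome 4 (light chain) and 8 on chromosome 6 (heavy chain). Their folds over normoxia ran between 2.37 and 10.3, with a median log2 fold of 1.98, in the authors' deposited table. In all 9 tables RefSeq annotates 44 immunoglobulin loci on chromosome 4 and 27 on chromosome 6. Most of these were not listed for Tol(F) over normoxia. Over all loci of the 9 tables, 7.31% were higher. A further 10 predicted IDs inside the same stretches of chromosomes 4 and 6, without an annotation, were also all higher, by 2.50-fold to 9.61-fold in the authors' deposited table. The edges of these stretches were set by annotated segments of all 9 tables. Just before the edge on chromosome 6, within 1.5 Mb (a window chosen after the values were seen), 4 predicted IDs were lower by 3.10-fold to 7.66-fold and 1 was 2.55-fold higher in the authors' deposited table, and 1 just after the edge on chromosome 4 was 3.08-fold higher. Against Sus(M), the authors' deposited table put Tol(F) between 7.24-fold and 50.2-fold higher at the 13 annotated segments. For 6 of them the authors' deposited table of Tol(F) over Nor(M) listed Tol(F) as the lower library, by 2.12-fold to 3.83-fold. Levels in Tol(M) ran between 0.132 and 0.900 of normoxia, in Nor(M) between 2.51-fold and 19.6-fold above it and in Sus(M) between 0.0473 and 0.449 of it, partly derived. The 13 are in the set because they were listed for Tol(F) over normoxia, and annotated segments not listed there are left out. The distance of Tol(F) from normoxia was thus fixed by that choice. At these 13, Nor(M) also lay above normoxia, and Tol(M) and Sus(M) lay below it. Near-identical segments share reads in ways not given in the sources used here, and each rat carries its own antibody repertoire, so single segments are uncertain. Outside these stretches 106 loci were higher and 112 lower. Stretches were set on chromosomes 4 and 6 only, so these counts hold the neighbours above and may hold immunoglobulin loci of other chromosomes.

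**Figure D3:**
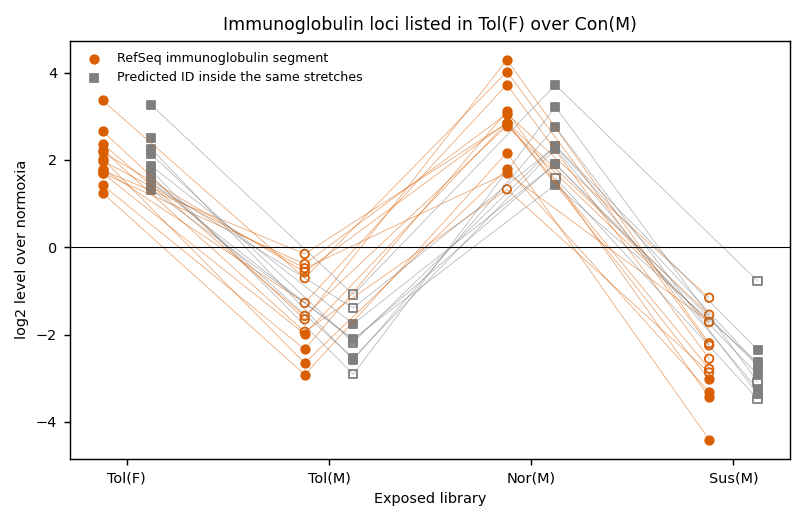
The log2 level over normoxia on the vertical axis is shown for the 13 annotated immunoglobulin segments (circles) and the 10 predicted IDs in the same stretches (squares) in each exposed library along the horizontal axis. Filled symbols are deposited and open symbols derived, and a line joins the values of 1 locus. All loci with a value lie above 0 in Tol(F) and Nor(M) and below 0 in Tol(M) and Sus(M). Only loci listed for Tol(F) over normoxia are shown.

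B cell surface genes went the other way. Of 40 B and plasma cell markers, 9 were listed and all were lower in Tol(F), with a median log2 fold of -2.41. That is 37.5% of the 24 members that any of the 9 tables lists, beside 6.35% lower over all such loci. Ms4a1, which encodes CD20, was 7.37-fold lower in Tol(F) and 8.27-fold lower in Sus(M) in the authors' deposited tables, with derived levels 1.35-fold below normoxia in Tol(M) and 1.09-fold below it in Nor(M). Cd79b, a signalling chain of the B cell receptor, was 5.31-fold below normoxia and 5.20-fold below Nor(M) in Tol(F) in the authors' deposited tables. Its partner Cd79a was 3.14-fold lower in Tol(F) and 4.22-fold lower in Sus(M) in the authors' deposited tables. The complement receptor Cr2 was 7.08-fold lower in Tol(F), 5.54-fold in Tol(M) and 18.2-fold in Sus(M) in the authors' deposited tables. Cd22, an inhibitory receptor, was lower by 5.58-fold in Tol(F), 2.91-fold in Nor(M) and 3.62-fold in Sus(M) in the authors' deposited tables. Pou2af1, a B cell coactivator, was 2.46-fold lower in Tol(F), and Swap70 and Faim3 were 2.69-fold and 3.24-fold lower in the authors' deposited table. Pou2f2, the octamer-binding partner of Pou2af1, was 5.79-fold lower in Tol(F) in the authors' deposited table. The haemoglobin genes described below, which mark blood in the sample, were lower in Tol(F) too, and their part in these folds was not tested. In bulk lung, fewer cells of a type and less RNA per cell cannot be told apart, here and for the cell types that follow.

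Few other leukocyte genes were listed, and unlisted ones have no value. Of 36 neutrophil genes, Retnlg and Cd177 were listed, both as lower. These are 14.3% of the 14 members that any of the 9 tables lists, beside 6.35% lower over all such loci. Retnlg, a secreted protein of neutrophils, was 4.66-fold lower in Tol(F), 6.79-fold in Tol(M), 2.35-fold in Nor(M) and 3.95-fold in Sus(M) in the authors' deposited tables. Cd177, a neutrophil surface protein, was 4.68-fold below normoxia, 2.63-fold below Sus(M) and 4.93-fold below Nor(M) in Tol(F) in the authors' deposited tables. Of 26 lymphoid homing genes 2 were listed, both as lower, and Cr2 was one of them. None of the 32 T cell, 33 natural killer, 29 eosinophil and mast cell, 49 macrophage or 18 platelet genes had an autosomal row.

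Haemoglobin genes were lower in Tol(F) at 5 loci of the red cell list, with a median log2 fold of -2.33. A predicted ID that lies among these loci on chromosome 1, but is not on the list, was 3.73-fold lower in the authors' deposited table and is not counted. Hbb, a beta chain, was 4.43-fold below normoxia, 4.85-fold below Sus(M) and 3.33-fold below Nor(M) in Tol(F) in the authors' deposited tables. Hba-a2, an alpha chain, was 5.04-fold below normoxia and 6.15-fold below Sus(M) in Tol(F), and 3.60-fold below normoxia in Nor(M), in the authors' deposited tables. Another gene model of Hba-a2 was listed as higher than normoxia in Nor(M). Derived levels in Sus(M) were 1.09-fold above normoxia for Hbb and 1.22-fold above it for Hba-a2. Tol(F) was thus lower than Sus(M) and Con for these genes. The other 3 loci carried predicted IDs that RefSeq names as copies of globin chains, at 4.69-fold to 5.62-fold lower in the authors' deposited table, and counts for such near-identical copies are uncertain. Genes of the red cell membrane and haem synthesis on the same list were not listed.

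Cardiac muscle genes had more listed members than any other list, with 18 of 85 listed and all 18 lower in Tol(F). They are 58.1% of the 31 members that any of the 9 tables lists, beside 6.35% lower over all such loci. By that share the red cell list (62.5% of 8) and the coagulation list (60.0% of 5) stood higher. Heart muscle also sheathes the pulmonary veins of rodents. The folds of the 18 genes ran between 2.34 and 12.6 with a median of 4.18 in the authors' deposited table. Mb, the oxygen-storing myoglobin, was lower by 12.6-fold in Tol(F), 874-fold in Tol(M), 6.13-fold in Nor(M) and 172-fold in Sus(M) in the authors' deposited tables. Myh6, the fast cardiac myosin heavy chain, was 4.51-fold lower in Tol(F), 602-fold in Tol(M), 8.34-fold in Nor(M) and 7.75-fold in Sus(M) in the authors' deposited tables. Sln, a regulator of the calcium pump, was 5.37-fold lower in Tol(F), 419-fold in Tol(M), 3.61-fold in Nor(M) and 12.1-fold in Sus(M) in the authors' deposited tables. Tol(F) was nearer to normoxia than Tol(M): at the 16 genes with a value in both, its derived level was 1.28-fold to 134-fold higher than in Tol(M), with a median of 10.8-fold. The normoxic library was the highest of the 5 for each of these 3 genes, so the folds rest on that 1 library. Whether the lung samples held different amounts of vein or heart tissue was not tested. None of the 27 skeletal muscle genes was listed.

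**Figure D4:**
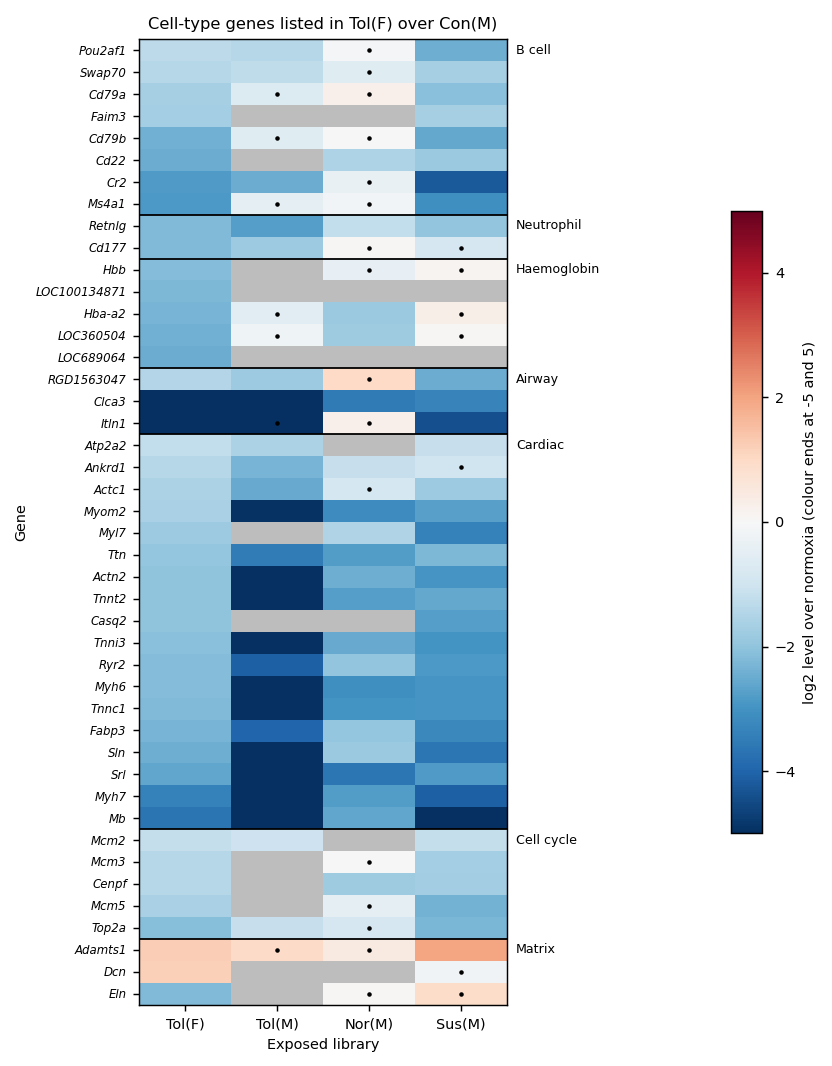
Colour gives the log2 level relative to normoxia of listed cell-type, cell cycle and matrix genes (rows) in the 4 exposed libraries (columns), with red for higher and blue for lower. A black dot marks a derived value and grey a value not given. The cardiac rows are blue in all columns with a value and darkest in Tol(M), and the haemoglobin rows are blue in Tol(F) but near white in Sus(M) where a value is given.

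Airway secretory genes held the lowest folds. Itln1, the lectin intelectin, was 55.0-fold below normoxia and 65.0-fold below Nor(M) in Tol(F) in the authors' deposited tables, and 21.2-fold below normoxia in Sus(M). Its derived level was 1.18-fold above normoxia in Nor(M) and 52.9-fold below it in Tol(M). For Itln1, Nor(M) and Con thus stood together, well above Tol(F), Tol(M) and Sus(M). Clca3, a secreted protein of mucous cells, was 32.8-fold lower in Tol(F), 38.7-fold in Tol(M), 11.6-fold in Nor(M) and 10.2-fold in Sus(M) in the authors' deposited tables. The ID that RefSeq names Bpifb1, an airway defence protein, was 2.78-fold below normoxia and 5.55-fold below Nor(M) in Tol(F) in the authors' deposited tables. These were the listed members of 35 airway secretory genes, and Itln1 was also the only listed gene of the mesothelial list. The listed airway genes are 21.4% of the 14 members that any of the 9 tables lists, beside 6.35% lower over all such loci. Dmbt1, a mucosal defence glycoprotein, was 5.41-fold lower in Tol(F), 10.6-fold in Tol(M), 2.01-fold in Nor(M) and 5.46-fold in Sus(M) in the authors' deposited tables.

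Of 80 cell cycle genes, 5 were listed, each as lower, and the others have no value here. They are 33.3% of the 15 members that any of the 9 tables lists, beside 6.35% lower over all such loci. Top2a, the topoisomerase of dividing cells, was 4.33-fold lower in Tol(F), 2.23-fold in Tol(M) and 4.88-fold in Sus(M) in the authors' deposited tables. Mcm5, Mcm3 and Mcm2, subunits of the replicative helicase, were 3.05-fold, 2.68-fold and 2.29-fold lower in Tol(F) in the authors' deposited table, and Cenpf, a kinetochore protein, 2.68-fold lower. Their FDR-corrected p-values in Tol(F) ran up to 0.0370 in the authors' deposited table, and 3 of the 5 had a p of at most 0.01.

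Of 68 matrix genes, 2 were higher and 1 was lower in Tol(F), and of 42 smooth muscle and fibroblast genes likewise 2 were higher and 1 was lower. Eln, which encodes elastin, was 4.61-fold below normoxia, 8.64-fold below Sus(M) and 4.85-fold below Nor(M) in Tol(F) in the authors' deposited tables. Derived levels of Eln were 1.05-fold above normoxia in Nor(M) and 1.87-fold above it in Sus(M). Tol(F) was thus the low library of the 4 with a value. Dcn, the collagen-binding proteoglycan decorin, was 2.29-fold above normoxia and 2.61-fold above Sus(M) in Tol(F) in the authors' deposited tables. Of 56 lung xenobiotic and retinoid enzymes, 2 were higher and 1 was lower. That is 17.6% of the 17 members that any of the 9 tables lists. Cyp1a1, a target of the aryl hydrocarbon receptor, was 3.30-fold below normoxia and 3.72-fold below Sus(M) in Tol(F) in the authors' deposited tables. Tiparp, another target of that receptor, was 2.62-fold higher, and the methyltransferase Inmt was 2.83-fold higher than normoxia and 2.30-fold below Nor(M) in Tol(F) in the authors' deposited tables.

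Of 51 lipid handling genes, 1 was higher and 1 was lower. Together they are 22.2% of the 9 members that any of the 9 tables lists. Scd1, which desaturates fatty acids and is also a fat cell gene, was 2.60-fold above normoxia and 2.22-fold above Sus(M) in Tol(F) in the authors' deposited tables, and Fabp3, a fatty acid carrier of heart muscle, was 5.01-fold lower. Of the solute carriers and ion channels, the potassium channels Kcnj15 and Kcnj2 were 5.89-fold and 2.14-fold higher, the carrier Slc10a6 was 2.46-fold higher, the sodium channel subunit Scn3b was 2.33-fold lower and the calcium-permeable channel Trpm2 was 2.75-fold lower in Tol(F) in the authors' deposited table. None of the 3 higher ones had an FDR-corrected p of at most 0.01. The 5 carriers and channels are 11.4% of the 44 members that any of the 9 tables lists. The shares over all such loci were 7.31% higher and 6.35% lower. The 3 listed ribosomal protein IDs were predicted copies and all lower, and no oxidative phosphorylation gene was listed. These 3 IDs are 7.14% of the 42 members that any of the 9 tables lists, close to the 6.35% lower over all such loci.

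Of named genes in no list, 88 were in the table. Ly6al was 18.6-fold above normoxia, 18.7-fold above Sus(M) and 36.8-fold above Nor(M) in Tol(F) in the authors' deposited tables. Garp, the TGF-beta docking receptor Lrrc32, was higher by 4.87-fold in Tol(F), 3.10-fold in Tol(M), 2.01-fold in Nor(M) and 4.11-fold in Sus(M) in the authors' deposited tables. Ret, a receptor tyrosine kinase, and Nab2, a corepressor of Egr1, were 4.43-fold and 3.98-fold higher in Tol(F) in the authors' deposited table. Some others were chosen after their values were seen, for their distance from Nor(M) or Sus(M). Spry4, a feedback inhibitor of receptor tyrosine kinase signalling, was 2.66-fold above normoxia and 17.7-fold above Nor(M) in Tol(F), and 6.66-fold below normoxia in Nor(M), in the authors' deposited tables. The Notch ligand Dll1 was 3.47-fold above normoxia, 2.97-fold above Sus(M) and 3.66-fold above Nor(M) in Tol(F) in the authors' deposited tables. Heyl, a Notch target, was 2.71-fold higher than normoxia in Tol(F) against 5.54-fold in Sus(M) in the authors' deposited tables. The largest rise of the table, 57.1-fold in Tol(F) against 34.8-fold in Tol(M) in the authors' deposited tables, belonged to a predicted ID on chromosome 18 that RefSeq does not name.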

How the data were processed

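Lung RNA of 5 Sprague Dawley rats was sequenced as 1 library per group. The authors deposited 11 tables of differences between libraries, 9 of them distinct. Per the file headers, each row holds a symbol, a place, a proportional fold and an FDR-corrected p-value. The deposited fold was read as a signed score: positive is the first library over the reference, negative is minus the inverse ratio. The deposited p-value is the authors' own, and 0 stands where it fell below the stored precision (46 loci). For the build, aligner, counting method and test, nothing is given in the sources used here, and depth is unknown.

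Overlapping rows of 1 symbol were counted as 1 locus, kept as the row with the largest fold, and loci on X were left out. Folds were turned to log2 with Python 3.11.15 and pandas 2.3.3. A fold that no table lists was derived through another library from rows with the same ID and place. Of 217 folds that could be checked against a deposited one, 217 matched within 0.001 on the log2 scale. Ratios of 1 set of library values must match in this way, so the match is no measure of how sure a derived fold is. The derivation was tested on simulated data. Of 182 named loci, 182 were found in RefSeq (GRCr8), as were 28 of 59 predicted ones, and 150 loci had a promoter there. The members and the 41 gene lists were chosen with earlier results of these data known. Genes named are list members, the 25 largest folds in each direction, and others said to be chosen later; counts include a few genes whose own values are not reported here. No test was run, and the alternatives tried are given at the end.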

Additional observations from a re-analysis of the deposited data

Results flagged for a closer look

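Edn1 was singled out because libraries moved in opposite directions against the same normoxic library: the fold was 3.68 in Tol(F) and -2.50 in Nor(M) in the authors' deposited tables. Each side is 1 library, and the difference between these folds was not tested here. For Edn1 the authors' deposited table of Tol(F) over Nor(M) lists a 9.18-fold difference.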

How the results depend on the processing

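No paired analysis was possible because each group is 1 library, and leaving out a library was not possible for the same reason. At a fold of at least 4 the authors' deposited table held 36 higher and 41 lower autosomal loci, against 129 and 112 as reported. The counts of higher and lower loci stayed within 1.5 times under each other alternative: a p of at most 0.01, every row counted, no predicted genes, and X-linked loci added. Over the totals, list counts and list medians together, 31 values moved at a fold of at least 4 and 6 at a p of at most 0.01, among them the counts of lower cell cycle genes (3 against 5), higher carriers and channels (0 against 3) and lower ribosomal IDs (1 against 3). The median log2 fold of the 6 listed endothelial cell markers was -0.32 and became 1.04 with X-linked loci, so it has no firm direction. No gene of the table is listed at 0 in 1 library, and no named symbol lies on another chromosome in RefSeq, so leaving such genes out changed nothing. With predicted genes left out, 2 of 5 haemoglobin loci and 0 of 3 ribosomal IDs were left. The 67 folds that could be derived through another library did not differ in direction from the deposited ones. Folds on 1 scale cannot do otherwise. Adarb1 had gene models of opposite sign at 1 locus, 2.11 and -2.70 in the authors' deposited table, and is counted as lower through its larger fold. Unknown depth limits every low-abundance gene.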
